A study of Mus musculus with 12 samples.

Results

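The collagen genes are the protein-coding genes of GENCODE M21 (mouse build GRCm38) whose symbol is Col, a number, the letter a and a number. The rule found 44 of 21938 protein-coding genes. Their chromatin accessibility was read from peaks and read counts of Omni-ATAC-seq, an assay in which the Tn5 transposase inserts sequencing adaptors into open chromatin. For each gene, the window was the gene body with 20 kb added on each side. The 44 windows held 1091 of the 273256 intervals obtained by merging the peaks of all groups, and 36 of the 1091 lay in the windows of more than 1 collagen gene.

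The cells were mouse embryonic fibroblasts (MEFs) at passage P2, of strain 129, from E12.5 chimeric embryos made by morula aggregation, in which host cells without the transgenes can remain. All 4 groups carried Cas9 in the Rosa26 locus, a doxycycline-inducible cassette of the reprogramming factors MYC, KLF4, OCT4 and SOX2 with the red reporter mOrange (MKOS-ires-mOrange) in the Sp3 locus, and a Nanog-GFP reporter. Control cells received a lentivirus with a guide RNA that targets no gene, and KO cells one with a guide against Zfp266, which encodes a KRAB zinc finger protein. The KO cells were therefore an edited pool and not a clone. MEF control and MEF KO cells stayed in fibroblast medium with FGF2 and heparin, without doxycycline. Reprogramming control and reprogramming KO cells were moved after 24 h to embryonic stem cell medium with LIF. It held doxycycline at 300 ng/ml and vitamin C at 10 µg/ml. These cells were sorted for mOrange after 72 h of induction and, where plated as for the study's RNA-seq, had grown among wild type 129 MEFs. All groups were harvested 96 h after transduction, with 3 libraries from 50000 cells each in every group. Induction, medium, vitamin C, plating and the sort differed together between the MEF and reprogramming groups, so they cannot be told apart. The labels do not say whether replicates came from separate embryos or cultures, so p-values measure only the spread between these libraries, which may be technical. Accessibility does not read an edit in the coding sequence, so the loss of ZFP266 was not checked here.

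Collagens are extracellular matrix proteins whose chains wind into a rope-like helix. Fibrillar collagens (types I, II, III, V, XI, XXIV and XXVII) build the fibres of connective tissue, and fibroblasts are a main source of types I, III and V. Type IV collagens form the network of basement membranes, type VI collagens form beaded filaments, and FACIT collagens sit on the surface of fibrils. During reprogramming by OCT4, SOX2, KLF4 and MYC, fibroblasts are known to lose their mesenchymal programme early and to take on epithelial features.

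The peak lists were similar in size, with 166486 and 161687 peaks in control and KO MEFs and 170135 and 163315 in control and KO reprogramming cells. Each list came from reads of 3 replicates pooled by the authors, which leaves a peak value without a replicate error or a test. As a check of the labels, promoter peaks were sought at marker genes. All 10 fibroblast markers had a promoter peak in every group. Of these, Fap was lower in reprogramming by over 1.5-fold in both pairs (5.46 and 5.57 in MEFs, 2.29 and 2.47 in reprogramming), also after the scaling described below, under which S100a4 and Pdgfra were higher. At pluripotency genes, Nanog had a promoter peak in both reprogramming groups (fold enrichment 2.66 and 2.40) and in neither MEF group, and Zfp42 had none and 1.81 in control and KO MEFs and 8.75 and 8.95 in reprogramming. Dppa5a had the opposite pattern (4.57 and 4.19 in MEFs, none in reprogramming), and Esrrb was at 4.36 and 3.96 in MEFs and 2.74 and 2.74 in reprogramming. After scaling, Pou5f1 was higher. Promoter peaks were called at 6 and 8 of 10 pluripotency markers in the MEF groups and at 7 in each reprogramming group. All 10 epithelial markers had a peak in every group. Of these, Cdh1 (log2 ratios of reprogramming over MEF −0.74 in control and −0.77 in KO) and Cldn7 (−0.70 and −0.84) were lower past 1.5-fold, though not after scaling, and Esrp1 (0.66 and 0.77) was higher, joined after scaling by Krt18. Of 5 endothelial markers 4 had a peak in each MEF group and 3 in each reprogramming group, and Emcn had none. Of 5 blood markers 2 had a peak in each MEF group and 3 in each reprogramming group, and the defining genes Ptprc and Spi1 had none. The part of other cells in the collagen results was not tested, and in such bulk samples fewer cells of a type and less open chromatin per cell cannot be told apart.

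The promoters of 4 collagen genes are shown first as examples of different outcomes at promoter peaks. Col1a2 and Col3a1 kept theirs, Col6a1 had the largest drop among promoters with a peak in all 4 groups, and Col6a3 nearly lost its peak. Genes with a promoter peak in MEFs only are not among these examples. Each sequence is from RefSeq (GRCm38.p6), runs 5′ to 3′ along the gene from 250 bases before to 50 bases after the start, and has capitals at motif matches on either strand. The motif letters were TATAAA for the TATA box, CCAAT for the CCAAT box, GGGNGNGG for a GC box of the KLF type and TGANTCA for AP-1.
Col1a2, chr6:4505368-4505667, plus strand: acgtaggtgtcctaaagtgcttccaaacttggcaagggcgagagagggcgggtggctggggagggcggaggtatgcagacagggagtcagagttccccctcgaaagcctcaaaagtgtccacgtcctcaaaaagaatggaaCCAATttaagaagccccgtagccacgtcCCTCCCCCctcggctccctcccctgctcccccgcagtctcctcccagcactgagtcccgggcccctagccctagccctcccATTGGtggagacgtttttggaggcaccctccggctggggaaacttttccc
Col3a1, chr1:45311288-45311587, plus strand: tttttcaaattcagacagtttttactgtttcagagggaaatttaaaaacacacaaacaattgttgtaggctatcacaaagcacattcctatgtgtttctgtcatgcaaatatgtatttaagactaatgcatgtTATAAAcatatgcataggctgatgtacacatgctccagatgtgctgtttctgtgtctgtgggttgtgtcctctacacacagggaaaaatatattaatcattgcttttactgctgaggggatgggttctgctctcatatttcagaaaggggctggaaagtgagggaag
Col6a1, chr10:76725995-76726294, minus strand: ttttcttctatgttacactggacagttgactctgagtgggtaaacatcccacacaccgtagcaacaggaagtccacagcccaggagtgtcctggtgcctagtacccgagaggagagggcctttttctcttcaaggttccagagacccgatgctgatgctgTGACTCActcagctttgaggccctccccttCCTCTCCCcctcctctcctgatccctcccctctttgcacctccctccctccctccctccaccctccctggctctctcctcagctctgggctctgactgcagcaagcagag
Col6a3, chr1:90843922-90844221, minus strand: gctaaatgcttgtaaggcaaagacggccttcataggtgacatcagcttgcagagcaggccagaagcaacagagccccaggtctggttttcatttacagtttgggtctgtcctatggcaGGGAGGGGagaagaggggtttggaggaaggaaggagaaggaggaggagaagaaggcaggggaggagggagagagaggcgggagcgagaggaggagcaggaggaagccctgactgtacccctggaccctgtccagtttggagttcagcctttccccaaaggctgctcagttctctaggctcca
Col1a2 held 2 CCAAT matches and 1 KLF match, and Col3a1 held a TATAAA match alone. Col6a1 held 1 AP-1 and 1 KLF match, and Col6a3 held 1 KLF match. Promoter sequences were matched for 35 of the 44 collagen genes, 38 starts in all. The comparison set was the 20150 promoters in the table whose symbol is a protein-coding gene of the annotation. The KLF motif was in 76.3% of the collagen promoters against 57.9% of these. CCAAT was in 34.2% against 37.8%, TATAAA in 13.2% against 12.1%, and TGANTCA in 1 of 38 against 1410 of 20150. Over all 32851 promoters of the table, other gene types included, the KLF share was 49.5%. Among the 38 collagen promoters searched, the only one with the AP-1 motif was that of Col6a1. Genes without a matched sequence, Col1a1 and Col5a2 among them, were not searched. These are matches to letters and not measured binding sites.

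The first comparison asked how accessibility at collagen promoters differed between reprogramming cells and MEFs, separately in the control pair (reprogramming control over MEF control) and the KO pair (reprogramming KO over MEF KO), which share no library. Most collagen genes kept a promoter peak at 72 h of reprogramming. A promoter peak here is a broad peak that overlaps 1 kb on either side of an annotated start, and its value is the highest fold enrichment over local background among such peaks. A promoter peak was called at 41 (control) and 42 (KO) of 44 collagen genes in MEFs, and at 35 (control) and 37 (KO) in reprogramming. Over all 21938 genes the shares with a promoter peak were 72.5% in both MEF groups and 73.1% and 72.7% in the reprogramming groups. Fold enrichments are given below in the fixed order MEF control, MEF KO, reprogramming control, reprogramming KO. Peaks were called in all 4 groups at 35 of 44 (79.5%), against 68.3% of all protein-coding genes.

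**Figure D1:**
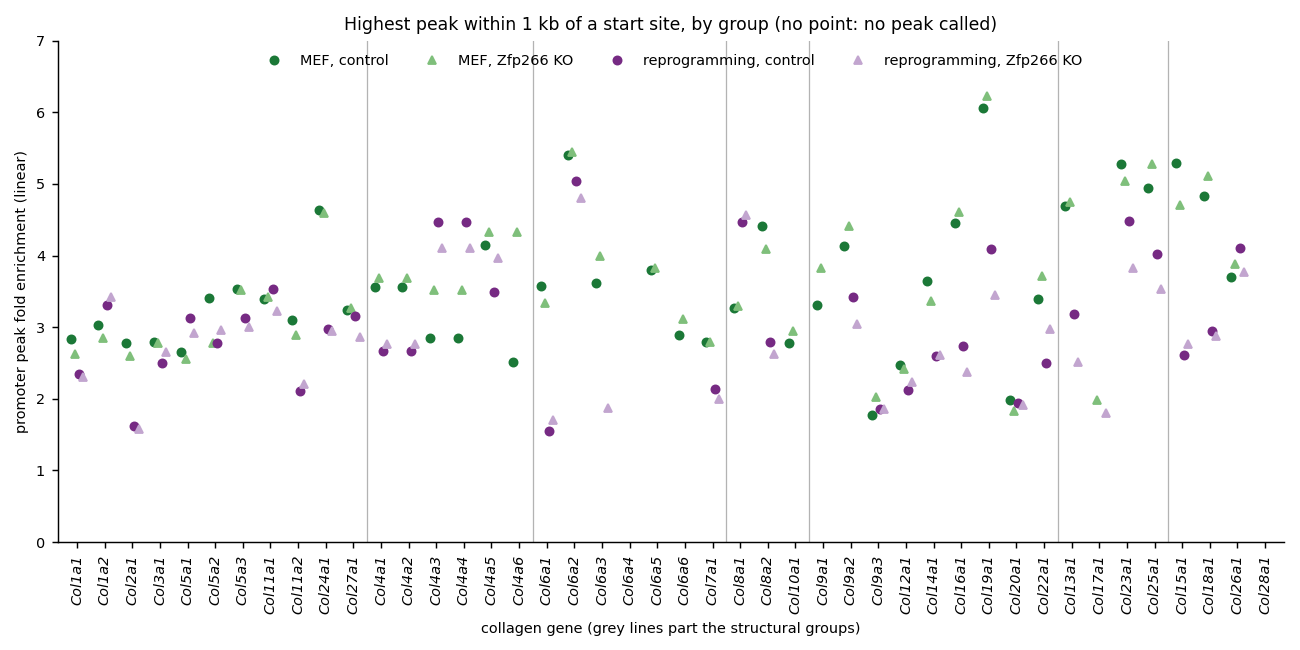
Promoter peak fold enrichment (vertical axis, linear) of the 44 collagen genes in the 4 groups, 1 point per group from the merged replicates. The 11 fibrillar genes have points in all 4 groups, while Col6a5, Col6a6, Col9a1, Col10a1 and Col4a6 have points in the 2 MEF groups alone.

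All 11 fibrillar collagen genes had a promoter peak in all 4 groups. Col1a1, which encodes the α1 chain of type I collagen, had fold enrichments of 2.83, 2.63, 2.35 and 2.31. Col1a2, its partner chain, had 3.03, 2.85, 3.31 and 3.42. Col3a1, the chain of type III collagen, had 2.80, 2.78, 2.50 and 2.66. None of these 3 passed 1.5-fold in either pair, and Col1a2 was the one with higher values in both reprogramming groups. Col5a1 and Col5a2 encode chains of type V collagen, which regulates fibril diameter. Col5a1 had 2.66, 2.55, 3.13 and 2.91, and Col5a2 had 3.41, 2.77, 2.77 and 2.97. Of the fibrillar promoters, 2 were lower in reprogramming by over 1.5-fold in both pairs. They were Col2a1, the main collagen of cartilage (2.78, 2.59, 1.63 and 1.58), and Col24a1 (4.63, 4.59, 2.97 and 2.95).

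The basement membrane genes lie in head-to-head pairs, 2 of which share a promoter peak. The 5′ ends of Col4a1 and Col4a2 are 21 bases apart and those of Col4a3 and Col4a4 are 72 bases apart, so each pair had 1 set of values. The shared Col4a1 and Col4a2 peak had 3.56, 3.69, 2.67 and 2.77. The shared Col4a3 and Col4a4 peak went the other way, with 2.85, 3.52, 4.47 and 4.11, past 1.5-fold in the control pair (log2 ratio 0.65) but not in the KO pair (0.22). Col4a5 and Col4a6 start 1309 bases apart. Col4a5 had a peak in every group, and Col4a6 had one of 2.52 in MEF control and none in either reprogramming group. In MEF KO the highest peak in the Col4a6 window, 4.34, was the Col4a5 peak, which reached into the window from its neighbour in that group alone, and the peak at Col4a6 itself had 2.42.

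Among the type VI genes, whose products form beaded filaments around cells, the neighbours Col6a1 and Col6a2 differed. Col6a1 had 3.57, 3.34, 1.55 and 1.71, while Col6a2 had 5.41, 5.45, 5.04 and 4.80. Col6a3 had 3.61 and 3.99 in the MEF groups, no called peak in reprogramming control and a weak peak of 1.88 in reprogramming KO, with a −log10 q of 1.78. Col6a5 (3.79 and 3.82) and Col6a6 (2.89 and 3.12) had promoter peaks in the MEF groups only.

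There were 5 collagen genes with a promoter peak in both MEF groups and neither reprogramming group, 11.4% of 44 against 2.74% of all genes. Besides Col4a6, Col6a5 and Col6a6, they were Col9a1 (3.31 in MEF control and 3.82 in MEF KO), which encodes a FACIT collagen of cartilage, and Col10a1 (2.79 and 2.95), a marker of hypertrophic chondrocytes. The Col9a1 peak lay at an internal start (chr1:24195313-24196961 in MEF control), whereas the 5′ end of the gene is at 24177610. No other promoter peak of Col9a1 was called in any group. No collagen gene showed the opposite pattern, which 3.18% of all genes did. Col17a1, a collagen of hemidesmosomes, had weak peaks in the 2 KO groups only (1.98 in MEF and 1.80 in reprogramming). Col12a1, a FACIT gene of tendon and dense connective tissue, kept its peak (2.47, 2.41, 2.13 and 2.23). Col6a4 and Col28a1 had no promoter peak in any group.

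Of the 35 collagen genes with a promoter peak in all 4 groups, 7 were lower in reprogramming by over 1.5-fold in both pairs (against 13.8% of 14994 genes) and 0 were higher (against 1.08% of genes). Promoter folds were lower in reprogramming over all genes, with a median log2 ratio of −0.24 in the control pair and −0.26 in the KO pair. The collagen medians were −0.27 and −0.32, close to those of all genes. After division by each group's median promoter fold, which removes a log2 shift of −0.30 and −0.32, the drop past 1.5-fold was found only at Col6a1, and 1 gene, Col8a1, was higher instead. Col6a1 had log2 ratios of −1.21 in the control pair and −0.97 in the KO pair before this scaling. The others past 1.5-fold were Col15a1 (−1.02 and −0.77) and Col18a1 (−0.71 and −0.83), which encode the multiplexins of basement membrane zones, Col2a1 (−0.78 and −0.71), Col16a1 (−0.71 and −0.96), Col8a2 (−0.66 and −0.64) and Col24a1 (−0.64 and −0.64). Just outside the threshold were Col19a1 (−0.57 and −0.85) and Col13a1 (−0.56 and −0.92). At Col18a1 and Col13a1, as at Col4a6, the highest promoter peak was not the same peak in every group. The highest MEF peak of Col18a1 was at an internal start (4.83 and 5.11) where no reprogramming peak was called, and its most upstream promoter peak had 4.54, 4.58, 2.94 and 2.87 (log2 ratios −0.62 and −0.67). The highest MEF peak of Col13a1 was likewise at an internal start with no reprogramming peak (4.70 and 4.75), and its most upstream promoter peak had 3.48, 3.48, 3.18 and 2.51 (−0.13 and −0.47). At Col8a2 the highest peak was at an internal start in every group, and its most upstream promoter peak had 2.51, 2.57, 2.10 and 2.35. With the peak covering most of the window in place of the highest, 6 collagen genes were lower (14.1% of all genes). Col8a2 was not among these 6. Over all genes the highest peak was taken in the same way, without a check that it was the same peak. Col8a1, a short-chain collagen of vessel walls, had 3.27 and 3.30 in the MEF groups and 4.47 and 4.56 in the reprogramming groups.

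**Figure D2:**
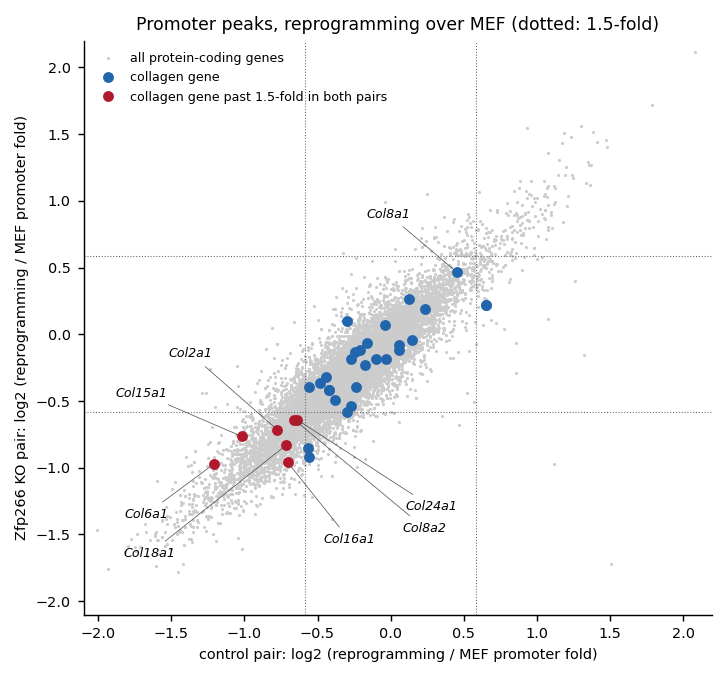
Log2 ratio of promoter fold, reprogramming over MEF, in the control pair (horizontal) and the KO pair (vertical) for 14994 genes with a promoter peak in all 4 groups (grey) and the 35 collagen genes among them (blue, or red where past 1.5-fold in both). The collagen genes lie within the cloud of all genes, from −1.21 (Col6a1) to 0.65 (Col4a3 and Col4a4, 1 shared peak) in the control pair.

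Over whole gene windows, collagen genes held more intervals called in MEFs only than intervals called in reprogramming only. Each merged interval was assigned to the groups whose peak lists overlap it. Of the 1091 intervals in collagen windows, 400 were called in both MEF groups and neither reprogramming group (36.7%, 95% Wilson interval 33.9 to 39.6, counting error only), against 27.5% of all 273256 intervals and 24.1% of the 186827 intervals in windows of all protein-coding genes. The opposite class, called in both reprogramming groups alone, held 217 (19.9%, 17.6 to 22.4), against 27.4% of all intervals and 26.2% of those in gene windows. Intervals called in all 4 groups made up 24.5% in collagen windows, 24.7% of all and 29.0% of those in gene windows. Among intervals over 1 kb from any protein-coding start, 38.5% of 1014 in collagen windows were called in MEFs only, against 29.2% of all such intervals. Counted group by group, 776 and 744 peaks of the control and KO MEFs lay in collagen windows, covering 650 kb and 671 kb. For the control and KO reprogramming cells the counts were 571 and 564 peaks, covering 474 kb and 462 kb. Peaks were counted once per group, so these shares have no replicate error, and neighbouring intervals are not independent.

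**Figure D3:**
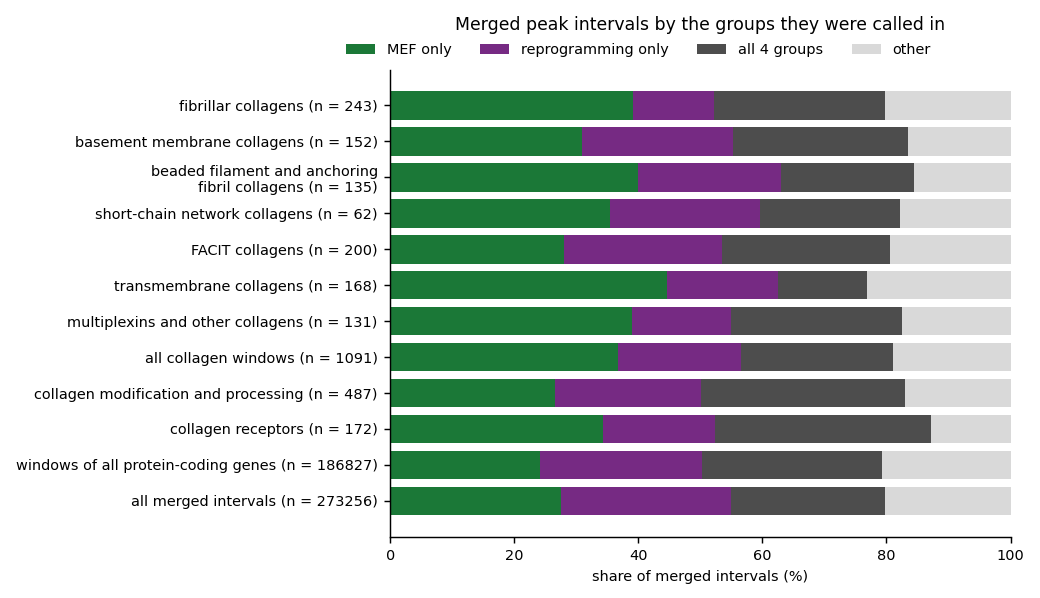
Share of merged intervals (horizontal axis, percent) called in both MEF groups only, in both reprogramming groups only, in all 4 groups, or in another combination, for each structural group of collagens and for the comparison sets. MEF-only intervals exceed reprogramming-only intervals in all 7 collagen groups, from 56 against 51 of 200 at FACIT collagens to 44.6% against 17.9% at transmembrane collagens.

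The MEF-only share was 44.6% of 168 intervals at transmembrane collagens, 54 of 135 at beaded filament and anchoring fibril collagens and 39.1% of 243 at fibrillar collagens. It was 56 of 200 intervals at FACIT collagens and 30.9% of 152 at basement membrane collagens. The reprogramming-only share was lowest at fibrillar collagens, 13.2%. By gene, 30 of 44 collagen genes had more MEF-only than reprogramming-only intervals, 10 had fewer and 4 had equal numbers. Of 17609 protein-coding genes with at least 5 intervals, 28.7% had more MEF-only intervals. Collagen genes are long, and long genes had more of this kind. Among genes of at least 50 kb, MEF-only intervals were in excess at 21 of 29 collagen genes (72.4%) against 40.4% of 4879 genes. Below 50 kb the excess was at 9 of 15 collagen genes against 24.2% of 12730 genes.

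**Figure D4:**
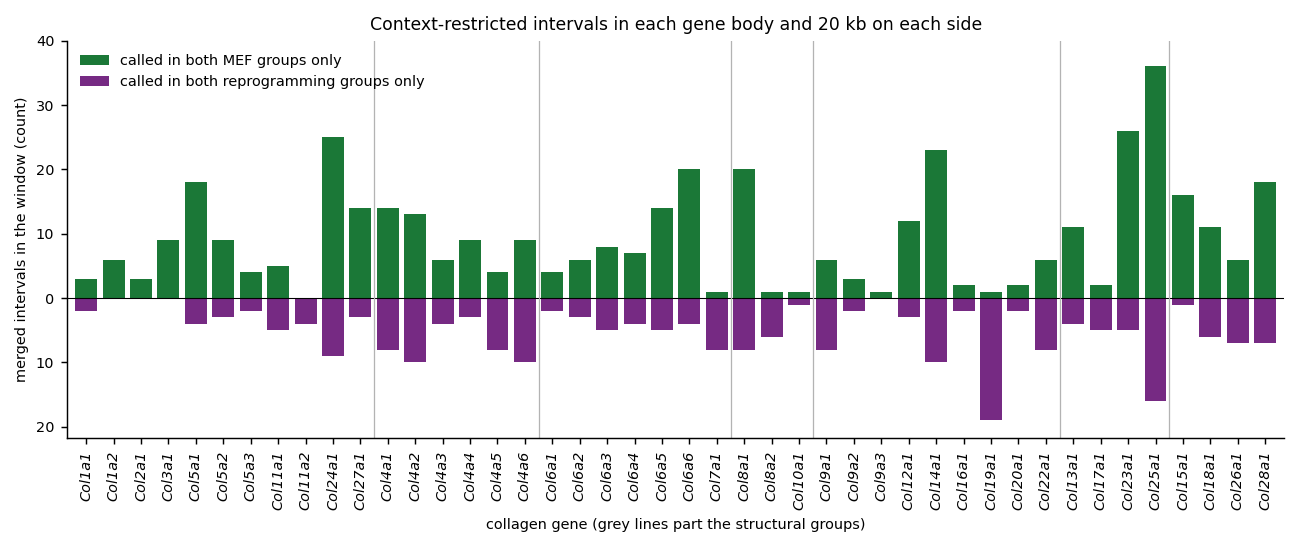
Number of merged intervals in each collagen window that were called in both MEF groups only (upward) or in both reprogramming groups only (downward). Col25a1 has the most MEF-only intervals (36) and Col19a1 the most reprogramming-only intervals (19 against 1).

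The most MEF-only intervals were in the windows of Col25a1 (36 of 71), Col23a1 (26 of 55), Col24a1 (25 of 47) and Col14a1 (23 of 50), followed by Col6a6 (20 of 31) and Col8a1 (20 of 36), which tied. Col23a1 and Col25a1 encode transmembrane collagens. Per 100 kb of window, Col25a1 had 14.0 intervals of all kinds and Col14a1 had 19.8. At the type I and III genes, MEF-only intervals were found beside promoters that kept their peaks. Col1a2 had 6 MEF-only and 0 reprogramming-only intervals, and Col3a1 had 9 and 0, whereas Col1a1 had 3 and 2. A far upstream enhancer of Col1a2 is known to drive the gene in fibroblasts of mice. The interval centred at −15932 bases from the Col1a2 start was called in all 4 groups, with folds of 3.35, 3.24, 2.95 and 2.98. At Col3a1 the strongest MEF-only interval lay at −11604 bases from the start, with 4.14 in MEF control and 4.11 in MEF KO. Col15a1 had 16 MEF-only intervals and 1 of the opposite kind, and its strongest, 85837 bases into the gene in an intron, had 5.53 and 5.83. Col5a1 had 18 and 4, Col12a1 had 12 and 3, Col6a3 had 8 and 5, and Col5a2 had 9 and 3. Col6a1 had 4 and 2, Col6a2 had 6 and 3, Col4a1 had 14 and 8, and Col4a2 had 13 and 10.

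Reprogramming-only intervals were most numerous in the windows of Col19a1 (19), Col25a1 (16), Col14a1 (10), Col4a2 (10) and Col4a6 (10). Col19a1, a FACIT collagen gene of basement membrane zones, had the largest excess of reprogramming-only intervals among the 44 genes, with 19 reprogramming-only intervals and 1 MEF-only interval among 31. Its strongest reprogramming-only interval lay 154193 bases into the gene, in an intron, with folds of 9.15 (control) and 9.38 (KO) in reprogramming cells, the highest of this class in any collagen window. Its promoter peak was in contrast lower in reprogramming (6.06, 6.22, 4.10 and 3.44). Col7a1 (8 against 1), the collagen of anchoring fibrils, and Col8a2 (6 against 1) also had more reprogramming-only intervals, as did Col11a2, a fibrillar gene with 4 against 0. The other 6 of the 10 genes with such an excess were Col4a5 (8 against 4), Col4a6 (10 against 9), Col9a1 (8 against 6), Col22a1 (8 against 6), Col17a1 (5 against 2) and Col26a1 (7 against 6).

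The strongest context-restricted interval away from starts is shown for 4 genes with MEF-only intervals and for Col19a1 with a reprogramming-only interval, as examples of the sequence opened in each context. Strongest means the highest fold in the control group of that context, among intervals whose middle lies outside exons. The Col1a2 example had 2.68 in MEF control and 1.83 in MEF KO. Each shows 200 bases around the middle of the interval (RefSeq genome, GRCm38.p6), since broad peaks carry no summit. Capitals mark matches on either strand, which can overlap, to the AP-1 and KLF letters given above or to 4 further motifs. For OCT factors the letters were ATGCAAAT, the octamer. For SOX factors they were CATTGT, a core shared by the family. For TEAD factors they were GGAATG, and for RUNX factors the letters searched were ACCACA.
Col1a2, chr6:4521129-4521328, plus strand: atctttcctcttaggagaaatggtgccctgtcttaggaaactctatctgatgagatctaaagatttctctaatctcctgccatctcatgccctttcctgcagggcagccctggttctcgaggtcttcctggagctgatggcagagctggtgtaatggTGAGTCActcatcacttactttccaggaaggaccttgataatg
Col3a1, chr1:45299834-45300033, plus strand: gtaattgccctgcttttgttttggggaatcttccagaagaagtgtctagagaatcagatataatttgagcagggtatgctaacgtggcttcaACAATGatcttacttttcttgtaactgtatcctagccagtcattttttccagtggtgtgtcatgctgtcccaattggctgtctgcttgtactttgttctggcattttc
Col6a3, chr1:90750290-90750489, plus strand: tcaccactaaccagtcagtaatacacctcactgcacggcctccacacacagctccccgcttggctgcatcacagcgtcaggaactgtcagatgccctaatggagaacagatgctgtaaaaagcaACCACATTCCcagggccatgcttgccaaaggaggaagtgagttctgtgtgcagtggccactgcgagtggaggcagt
Col15a1, chr4:47293898-47294097, plus strand: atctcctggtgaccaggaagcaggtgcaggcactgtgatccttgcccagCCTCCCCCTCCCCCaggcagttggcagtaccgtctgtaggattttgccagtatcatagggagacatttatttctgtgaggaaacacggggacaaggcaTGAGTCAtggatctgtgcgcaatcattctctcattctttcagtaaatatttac
Col19a1, chr1:24433179-24433378, plus strand: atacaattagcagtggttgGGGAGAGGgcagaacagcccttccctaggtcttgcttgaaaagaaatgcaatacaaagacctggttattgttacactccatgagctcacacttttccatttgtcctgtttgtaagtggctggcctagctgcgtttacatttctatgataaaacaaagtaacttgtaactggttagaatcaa
The first 4 are MEF-only and the last is reprogramming-only. The Col1a2 window lies in an intron and runs into exon sequence of the same gene, those of Col15a1 and Col19a1 are intronic, and those of Col3a1 and Col6a3 are intergenic. The Col1a2 window holds 1 AP-1 match, the Col3a1 window 1 SOX match and the Col15a1 window 1 AP-1 and 3 KLF matches. The Col6a3 window holds overlapping TEAD and RUNX matches, and the Col19a1 window holds 1 KLF match. Over all context-restricted intervals, read in the central 300 bases, the AP-1 and TEAD motifs had higher shares in MEF-only and the KLF and SOX motifs in reprogramming-only intervals, in collagen windows and over the whole set, with no test. The AP-1 motif was in 27.3% of the 400 MEF-only intervals and 13.4% of the 217 reprogramming-only intervals of collagen windows, against 31.6% and 15.1% of all intervals of these classes. The KLF motif was in 22.5% and 34.1% of them, against 18.2% and 31.8%, and the SOX motif in 17.8% and 28.6%, against 16.7% and 26.6%. The OCT octamer was rare, in 2.50% and 1.84%, against 1.94% and 2.62%. TEAD matches were in 27.5% and 20.7%, against 24.4% and 17.2%, and RUNX matches in 25.8% and 25.3%, against 26.8% and 23.8%. The share of bases that the reference masks as repeats was 12.1% in MEF-only and 22.1% in reprogramming-only collagen intervals, against 14.3% and 29.8% of all intervals of these classes.

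The second comparison asked whether loss of ZFP266 moved accessibility at collagen genes within each context. The median log2 ratio of KO over control at the 35 collagen promoters was 0.01 in MEFs (range −0.30 at Col5a2 to 0.31 at Col4a3 and Col4a4) and −0.04 in reprogramming (range −0.34 at Col13a1 to 0.26 at Col22a1), against −0.02 and −0.03 over all genes. Counts past 1.5-fold were taken over promoters with a peak in both groups of a context, whether or not among these 35. In MEFs 1 collagen promoter passed, the Col4a6 window described above that the Col4a5 peak had entered, and 0 passed with 500 bp windows. Of 15778 such genes in MEFs, 0.158% passed. In reprogramming 0 passed, against 0.152% of 15787 such genes.

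The authors' tables list the intervals past a false discovery rate of 0.05, 480 in MEFs and 1608 in reprogramming. In MEFs, 1 listed interval lay in a collagen window and was more open in KO, 0.0917% of 1091 against 0.175% of all merged intervals. In reprogramming, 4 were more open (0.367% against 0.557%) and 1 was more closed (0.0917% against 0.0315%). With 1 to 4 intervals in each class, no difference from the background share is read. None of the 6 was listed in both contexts, so no test of KO effects between contexts was made. The 6 sequences are printed because they are the collagen regions where KO and control cells differed, as 200 bases around each middle on the plus strand, with capitals as above.
Col4a2, chr8:11339735-11339934, plus strand: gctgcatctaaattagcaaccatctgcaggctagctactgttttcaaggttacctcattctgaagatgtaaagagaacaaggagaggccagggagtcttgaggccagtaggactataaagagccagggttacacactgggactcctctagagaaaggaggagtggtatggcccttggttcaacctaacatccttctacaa
Col19a1, chr1:24318498-24318697, plus strand: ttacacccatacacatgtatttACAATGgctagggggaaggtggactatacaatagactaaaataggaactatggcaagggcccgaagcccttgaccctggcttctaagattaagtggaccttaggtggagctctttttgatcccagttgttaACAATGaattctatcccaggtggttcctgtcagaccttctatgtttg
Col18a1, chr10:77123582-77123781, plus strand: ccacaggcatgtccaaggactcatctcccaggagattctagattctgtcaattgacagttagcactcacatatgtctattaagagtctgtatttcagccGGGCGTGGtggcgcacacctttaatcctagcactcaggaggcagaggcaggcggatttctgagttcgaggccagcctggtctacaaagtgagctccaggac
Col2a1, chr15:98018403-98018602, plus strand: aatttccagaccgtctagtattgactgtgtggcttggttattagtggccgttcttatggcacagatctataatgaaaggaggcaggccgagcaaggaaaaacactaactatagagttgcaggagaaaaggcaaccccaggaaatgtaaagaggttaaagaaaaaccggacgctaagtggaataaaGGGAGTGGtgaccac
Col16a1, chr4:130119666-130119865, plus strand: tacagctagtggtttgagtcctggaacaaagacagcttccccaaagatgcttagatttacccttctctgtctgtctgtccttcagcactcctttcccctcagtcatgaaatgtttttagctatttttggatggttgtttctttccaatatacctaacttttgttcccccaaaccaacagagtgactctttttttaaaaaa
Col6a6, chr9:105679429-105679628, plus strand: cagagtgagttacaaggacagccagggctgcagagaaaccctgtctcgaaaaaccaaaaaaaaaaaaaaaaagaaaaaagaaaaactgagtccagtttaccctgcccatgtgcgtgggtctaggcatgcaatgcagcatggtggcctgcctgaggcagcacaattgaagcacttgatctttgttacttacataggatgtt
The first is the MEF interval and the others are from reprogramming. The Col19a1 window holds 2 SOX matches, and 92.5% of its bases are masked as repeats. The Col18a1 window has 67.0% masked bases, and its single KLF match lies within them. The Col2a1 window has 13.0% masked bases and 1 KLF match, also within them. The windows of Col4a2, Col16a1 and Col6a6 hold none of the 6 motifs in these 200 bases, with 0.0%, 24.5% and 46.0% masked bases. Over its whole length the Col4a2 interval holds 2 AP-1, 7 KLF, 1 SOX, 1 TEAD and 3 RUNX matches. The whole Col16a1 interval holds 2 AP-1, 1 KLF, 2 SOX, 2 TEAD and 3 RUNX matches, and the whole Col6a6 interval 1 AP-1, 2 KLF and 1 RUNX match. Over all listed intervals, 30.4% of the central bases were masked in MEFs and 36.4% in reprogramming, against 20.8% over all merged intervals.

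In MEFs the listed interval was in an intron of Col4a2, which encodes the α2 chain of type IV collagen, at chr8:11338682-11340988, 27030 bases from the start. Its normalised counts were 196, 165 and 177 in the MEF control libraries and 312, 278 and 281 in the MEF KO libraries. The means were 179 ± 15.4 (SD, n = 3) and 290 ± 18.9 (SD, n = 3), a ratio of 1.62. By edgeR's quasi-likelihood test the log2 fold change was 0.69 (SE 0.08), with an adjusted p of 7.74e-14. The mean over the 6 reprogramming libraries was 254, and the interval was covered by peaks in all 4 groups.

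In reprogramming the more closed interval was in an intron of Col19a1, at chr1:24317930-24319266, 268813 bases from the start. Its normalised counts were 250, 246 and 312 in the control libraries and 177, 182 and 194 in the KO libraries. The log2 fold change was −0.54 (SE 0.10, edgeR adjusted p = 1.28e-05). The mean over the 6 MEF libraries was 3.72, so few reads came from this site in fibroblasts. It was 1 of the 19 reprogramming-only intervals of Col19a1, and it was lower in KO although peaks were called in both reprogramming groups (3.31 in control and 3.53 in KO).

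The interval in an intron of Col18a1, which encodes the precursor of endostatin, at chr10:77123306-77124058, had 39.1, 55.3 and 54.8 in control and 104, 105 and 113 in KO, means of 49.8 ± 9.23 and 107 ± 4.79 (SD, n = 3). Its log2 fold change was 1.09 (SE 0.16, edgeR adjusted p = 1.95e-08), and the MEF libraries averaged 13.1. It lay 9736 bases from the nearest Col18a1 start, on its upstream side. The interval 13808 bases from the Col2a1 start, on its upstream side, at chr15:98018068-98018938 in intergenic sequence, had 35.8, 33.6 and 28.7 in control and 102, 72.6 and 111 in KO. KO was higher by 2.91-fold on the means (log2 fold change 1.52, SE 0.18, edgeR adjusted p = 1.07e-12), and a peak was called in reprogramming KO alone.

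The other 2 lay inside neighbouring genes. The interval in the Col16a1 window, at chr4:130118686-130120845, was 19403 bases outside the gene body, in an intron of Pef1. It had 62.6, 57.2 and 49.6 in control and 96.1, 93.5 and 98.4 in KO (log2 fold change 0.75, SE 0.16, edgeR adjusted p = 0.000608). The interval in the Col6a6 window, at chr9:105679284-105679773, was 8036 bases outside the gene body, in an intron of Pik3r4. It had 3.35, 14.5 and 10.4 in control and 39.3, 35.7 and 31.8 in KO (log2 fold change 1.88, SE 0.31, edgeR adjusted p = 6.68e-07), from raw counts of 3, 16 and 8 in control and 43, 29 and 20 in KO. In both, peaks were called in reprogramming KO alone.

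**Figure D5:**
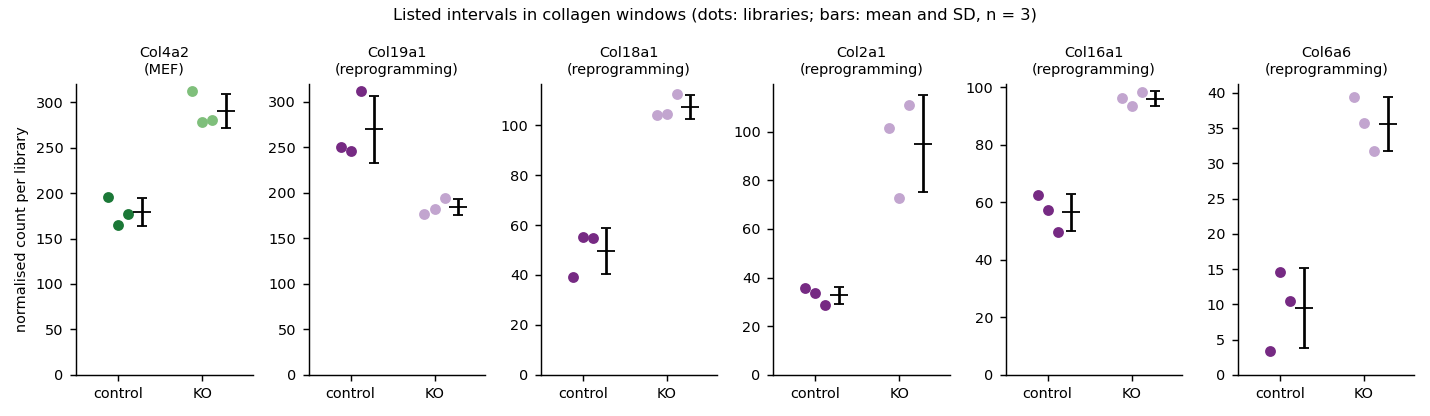
Normalised count (vertical axis, linear, a separate scale per panel) in each library at the 6 listed intervals of collagen windows, with mean and SD of 3 libraries. The KO mean lies above the control mean at 5 intervals and below it at the Col19a1 interval, all selected on these same libraries.

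These 6 intervals were selected by the authors on the same libraries. The tests above and the separation of KO from control libraries are therefore not independent evidence. The sizes given here rest on the authors' size factors. Other scalings, given at the end, could be taken only over the selected intervals. Their shifts are fixed by that selection, so they cannot test how size and direction depend on the scaling.

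Genes that make and bind collagens were read in the same way. Of 29 genes for collagen modification and processing, 28 had a promoter peak in all 4 groups. Of these, 5 were lower in reprogramming by over 1.5-fold in both pairs and 0 were higher, against 13.8% and 1.08% of all genes. They were P4ha2, a prolyl hydroxylase subunit (log2 ratios −0.67 and −0.65), Crtap, a partner of prolyl 3-hydroxylation (−0.62 and −0.63), Colgalt1, a collagen galactosyltransferase (−0.86 and −1.09), and the lysyl oxidase-like genes Loxl3 (−0.80 and −0.89) and Loxl4 (−0.72 and −0.65). P4ha3 had a weak promoter peak in the reprogramming groups only (1.93 and 1.61). Of 10 collagen receptor genes, 8 had a promoter peak in all 4 groups and 1, Itga1, was lower (−0.68 and −0.99). After division by the median promoter fold, 0 genes of either list passed 1.5-fold in both pairs. The MEF-only share of intervals was 26.5% of 487 at the processing genes and 34.3% of 172 at the receptor genes, against 24.1% in windows of all genes and 27.5% of all intervals. The reprogramming-only shares were 23.6% and 18.0%, against 26.2% and 27.4%.

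The listed intervals at these genes were 1 in MEFs and 5 in reprogramming, all more open in KO, where 0.175% of all merged intervals were listed as more open in MEFs and 0.557% in reprogramming. With so few intervals, no difference from these shares is read. In MEFs the interval in the window of Plod3, a lysyl hydroxylase gene, had 44.3 ± 8.82 in control and 94.4 ± 7.62 in KO (SD, n = 3). In reprogramming the largest difference was in the window of Colgalt1, from 48.5 ± 5.52 to 187 ± 10.1 (SD, n = 3). Those near Loxl1 (103 ± 5.51 to 163 ± 23.2), Pcolce2 (116 ± 6.48 to 200 ± 15.6), Crtap (520 ± 19.8 to 632 ± 14.8) and Itgb1 (160 ± 11.7 to 274 ± 18.1) differed by a smaller ratio.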

How the data were processed

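Omni-ATAC-seq was done in 12 libraries, 3 in each of 4 groups taken from the sample titles. The authors used BWA for alignment (GRCm38), dropped PCR duplicates, reads on the mitochondrial genome or in blacklisted regions and improper pairs, then pooled the replicates of a group and ran MACS2 in broad mode. The deposited peak lists give each peak's fold enrichment, a ratio to local background averaged over the broad peak, and its −log10 q. The deposited tables give raw read counts per interval and library, and a normalised signal (the count over the library's size factor from DESeq2), for intervals past the authors' false discovery rate of 0.05 only. They also hold the authors' mean signal over 12 libraries, and the authors' fold changes and p-values, which were not used.

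Peaks of the 4 lists were merged into 273256 intervals, none past a chromosome end of the reference (GRCm38.p6), and all listed intervals were among them. Starts are counted from 1. Promoters were 1000 bp on either side of every protein-coding transcript start. The raw counts of listed intervals were tested again in R 4.3.3 by the two-sided quasi-likelihood test of edgeR 4.0.16, with size factors recovered as raw over normalised count (0.630 to 1.46), without a low-count filter, and Benjamini-Hochberg adjustment over 273256 tests at 0.05. Since the intervals were selected, their spread between libraries may be estimated too low. DESeq2 1.42.0, other scalings, a filter of 10 reads in 3 libraries, a replicate block and left-out libraries were tried. The mean of the other context was 2 times the 12-library mean minus the mean of the 6 libraries listed, which held at the 70 intervals listed in both tables. The tests were checked on simulated counts, and interval overlaps on simulated intervals. Total depth per library is unknown, since the tables cover listed intervals only (33936 to 86490 reads per library in MEFs, 141616 to 324141 in reprogramming). No pair of libraries in a group looked like 1 library deposited again (chi-square per degree of freedom 1.13 to 1.69).

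Named genes were the major fibroblast collagens (Col1a1, Col1a2, Col3a1, Col5a1, Col5a2, Col6a1, Col6a2, Col6a3, Col4a1, Col4a2 and Col12a1), those past 1.5-fold the same way in both pairs, those with a promoter peak in 1 context only, those with a listed interval, and the 5 with the most intervals of each context-restricted class. Genes just outside a threshold, the further genes with more reprogramming-only intervals, and Col7a1, Col8a1, Col8a2, Col15a1 and Col17a1 where they fall outside that rule, were chosen after their values were seen. The members and lists were chosen with earlier results of these data known.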

Additional observations from a re-analysis of the deposited data

How the results depend on the processing

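Of 72 alternatives tried on counts and shares, 56 stayed within 1.5 times the reported count or within the interval of the reported share. The number of collagen promoters lower in reprogramming past 1.5-fold in both pairs was 7 as reported, 0 at 2-fold, 1 after scaling by the median promoter fold and 28 with −log10 q in place of fold, where 71.7% of all genes passed too. The number higher was 0 as reported and 1 (Col8a1) both after that scaling and by percentile rank moving 20 points. The 1 promoter past 1.5-fold between KO and control in MEFs became 0 at 2-fold and 0 with windows of 500 bp. The MEF-only share of 36.7% was 33.6% with 50 kb on each side and 40.8% with peaks of −log10 q of at least 5, against 25.0% and 28.3% in windows of all genes under the same settings. The setting of intervals outside 1 kb of a start was added after the data were seen.

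The collagen intervals passing edgeR's test went from 1 in MEFs and 5 in reprogramming to 0 and 1 with TMM over the listed intervals, and to 0 and 2 with the total over the listed intervals. TMM put Col4a2 at −0.36, Col16a1 at −0.22, Col18a1 at 0.12, Col2a1 at 0.55 and Col6a6 at 0.91, and Col19a1, reported at −0.54, at −1.51. These shifts are fixed by construction: both scalings centre intervals that were selected and mostly more open in KO, so they lower every log2 fold change alike and say nothing about direction or stability. Under the second, Col4a2 was at −0.21, Col16a1 at 0.04, Col18a1 at 0.38, Col2a1 at 0.81, Col19a1 at −1.25 and the Col6a6 interval at 1.17 (edgeR adjusted p = 0.0831). With 50 kb on each side they were 3 and 9, and with the gene body only the reprogramming count was 2. Leaving out 1 library at a time kept 1 and 5, and the log2 fold changes ran from 0.63 to 0.77 at Col4a2, −0.61 to −0.44 at Col19a1, and 1.49 to 2.42 at Col6a6. The replicate block gave 1 and 5, with 0.70 at Col4a2, −0.53 at Col19a1 and 1.11 at Col18a1, and changed no call. Same-numbered control and KO libraries correlated in their deviations from group means at 0.21, 0.14 and 0.04 in MEFs and 0.04, 0.10 and 0.08 in reprogramming. These values were small, but each control library correlated best with its own number. Whether the numbers pair samples was not tested. The main test took the libraries as unpaired, with the replicate block as the alternative. DESeq2 and the filter on low counts changed no call at these 6 intervals. No interval was listed in both contexts in a collagen window, so that test was not run. Peak values have no replicate, so no paired analysis of them was possible.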
